A study of Arabidopsis thaliana with 16 samples.

Results

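Among 22746 probe sets of the Arabidopsis ATH1 array, 45 gave a much higher signal after dexamethasone in shoots of an empty vector line and a signal that changed little with dexamethasone, or was at the floor, in a line carrying an inducible DELLA transgene. They were chosen on these same signals. Signals under 8 were set to 8 and log2 was taken, and each group's arrays were averaged. A member then had a change, dexamethasone (DEX) minus mock, of at least 2.5 in the vector line and between -0.3 and 0.3 at both times in the other line, with a mean signal of at least 100 in the vector line with DEX. In all, 439 probe sets met the conditions on the vector line, and the 45 are 10.3% of them. LBD16, WES1, CML37, AT3G62280, AT3G48950 and every symbol starting with UGT were also left out by the rule, and this removed no probe set that met the other conditions. The changes that chose the members are given as a description, without a test.

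DELLA proteins are nuclear repressors of gibberellin signalling that gibberellin normally removes by ubiquitin-dependent degradation. A DEX-inducible construct usually keeps a chimeric transcription factor inactive until the glucocorticoid DEX releases it, after which it switches on the inserted gene. A line that carries the vector alone is the usual control for what the activator and DEX do without the insert.

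All groups were shoots of 8-day-old Ler seedlings that had been sprayed with 2 µM GA4, an active gibberellin, 16 h before the experiment and were sprayed with 2 µM GA4 again. In the Vector groups, the same vector without rga-delta17, shoots were taken at 4 h with 10 µM DEX (2 arrays) or without DEX (mock, 2 arrays). In the Dex-rga(delta17) line, called the rga line here, DEX induces a dominant, gibberellin-insensitive DELLA form. Its shoots were taken with 10 µM DEX or as mock at 4 h and at 2 h, with 3 arrays in each of these 4 groups. The Vector line has no 2 h samples, and the labels used here do not say how many independent transformants either line stands for.

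The Vector DEX arrays stood apart from the rest. Their correlation with any of the remaining 14 arrays was 0.789 to 0.885 over the tested probe sets, whereas pairs among those 14 reached 0.916 to 0.975. Their 25S ribosomal RNA control gave 12528 and 13088, against 422 and 526 in Vector mock and 391 to 2046 in the rga line. Every array had been scaled to 1 trimmed mean, and the median signal was 138 to 141 with DEX and 167 to 168 without it in the Vector line, and 178 to 193 in the rga line. The ratio of 3' to 5' actin signal was 12.8 to 14.2 in Vector DEX, 14.9 to 16.6 in Vector mock and 7.98 to 11.4 in the rga line. Both Vector DEX arrays share these features, so the members' rises cannot be told apart from what sets these 2 arrays apart, and its part in the rises was not tested. Only 2 of 16 shoot markers had a named probe set, RCA and LHCB4.1, and their summed signal was 30123 to 30538 with DEX and 33725 to 35662 without it in the Vector line, and 29565 to 38975 in the rga line. Of 14 root markers 3 had one: their sum was 5580 to 7098 with DEX and 6945 to 7226 without it in the Vector line, and 6296 to 8347 in the rga line. PYK10, a beta-glucosidase gene known for high levels in roots, made up nearly all of that root sum.

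Of the 45 members, 27 match 1 named gene, 1 matches several and 17 are unnamed here. The log2 change in the Vector line had a median of 3.16 and reached 6.12. It was at least 4 in 7 members, between 3 and 4 in 19 and under 3 in 19. For the 27 named genes it ran from 2.51 to 4.35, which is 5.69-fold to 20.4-fold. The 2 Vector DEX arrays differed from each other by a median of 1.17-fold and by at most 1.70-fold, and the 2 Vector mock arrays, with the floor applied, by a median of 1.28-fold and at most 4.20-fold. On the Vector mock arrays both signals lay under the floor of 8 in 5 members and 1 of them in 7, and for these 12 a fold is a lower bound. The named genes lie on chromosomes 1 to 5 in numbers of 8, 3, 3, 3 and 10. The spread of all named probe sets over the chromosomes is not given here, so nothing is read from these numbers.

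**Figure D1:**
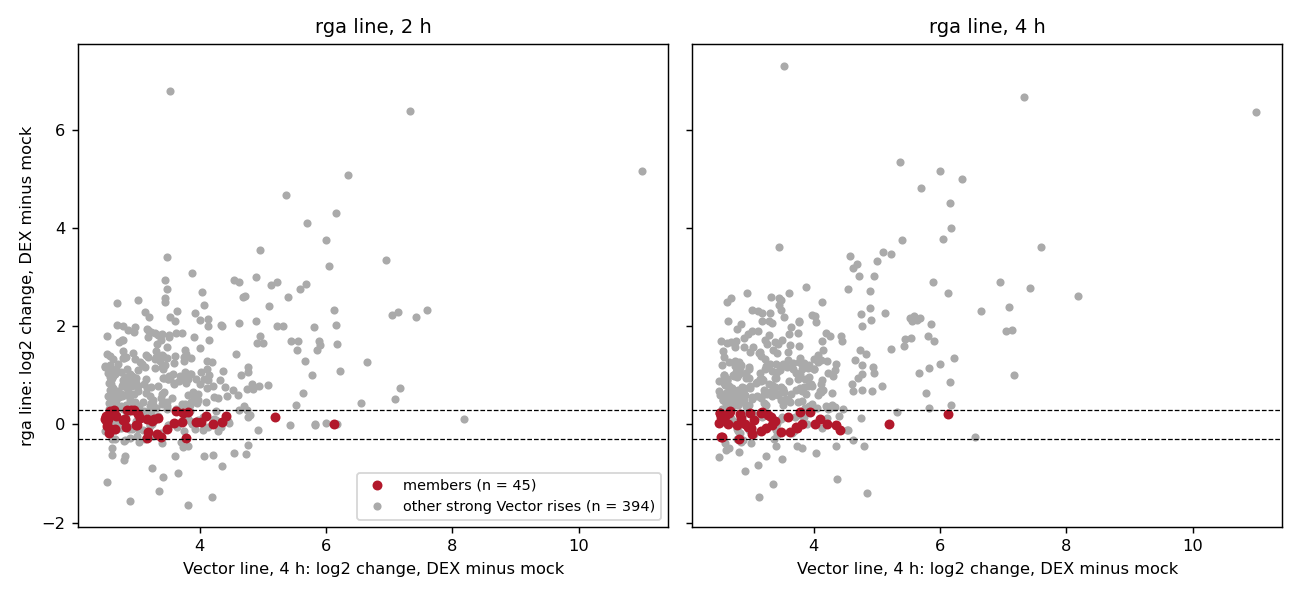
Log2 change with DEX in the rga line (vertical axis, 2 h on the left and 4 h on the right) against that in the Vector line at 4 h (horizontal axis), for the 439 probe sets that met the conditions on the Vector line. Red points are the 45 members, which lie between the dashed lines at -0.3 and 0.3 by choice, and grey points, the other strong Vector rises, lie mostly above that band.

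Most other strong Vector rises were above the window of the rule in the rga line at both times. Of the 439, 252 (57.4%) were above 0.3 in the rga line at both times and 6 (1.37%) were below -0.3 at both. Another 60 (13.7%) were within the window at 2 h and above it at 4 h, and 35 (7.97%) were above it at 2 h and within it at 4 h. The matching shares over all probe sets are not given here, so nothing is read from these.

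The members include several genes for protein turnover and signalling. PUB24 encodes a U-box ubiquitin ligase known as a brake on pattern-triggered immunity. Its signal was 1483 and 1521 on the Vector DEX arrays, against 244 and 269 on the Vector mock arrays. In the rga line it was 176, 146 and 155 with DEX and 188, 253 and 141 without it at 4 h. At 2 h the rga arrays gave 229, 161 and 152 with DEX and 157, 224 and 225 without it. Only the 2 Vector DEX arrays were high, and the DEX and mock arrays of the rga line overlapped at both times. The log2 change was 2.55 (5.87-fold) in the Vector line and -0.25 at 4 h and -0.17 at 2 h in the rga line.

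AT5G37490, of the U-box family, had the largest Vector change among the named genes, 4.35 (20.4-fold). Its signal was 1285 and 958 with DEX and 45.6 and 65.0 without it in the Vector line. The rga arrays gave 109, 94.6 and 94.5 with DEX and 148, 76.2 and 90.2 without it at 4 h. At 2 h they gave 117, 78.7 and 80.6 with DEX and 76.5, 149 and 57.8 without it. The rga groups overlapped, and both Vector mock arrays were below the median of the rga arrays, 92.4. AT5G55970, a RING finger gene and thus a likely ubiquitin ligase gene, gave 789 and 650.0 on the Vector DEX arrays and 82.0 and 41.1 on the Vector mock arrays. Its rga arrays gave 119.6, 86.8 and 87.1 with DEX and 148, 91.1 and 90.8 without it at 4 h, and 104, 93.9 and 96.0 with DEX and 77.8, 79.2 and 88.0 without it at 2 h. The Vector change of AT5G55970 was 3.62 (12.3-fold), and at 2 h each of its rga DEX arrays was above each mock array by a small margin, a change of 0.27.

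SGP2 encodes a small GTP-binding protein. Its 2 Vector DEX arrays gave 899 and 901, against 158 and 159 in Vector mock. At 4 h the rga line gave 184, 189.9 and 198 with DEX and 159.6, 176 and 152 without it, and at 2 h 206, 241 and 202 with DEX and 187, 191 and 198 without it. SGP2 has the smallest Vector change of the named members, 2.51 (5.69-fold), with the closest pair of Vector arrays. In the rga line its DEX arrays all lay above the mock arrays at both times, with changes of 0.23 at 4 h and 0.17 at 2 h, so it is within the window without being level between the groups.

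The kinase genes had lower signals. AT5G41680, a protein kinase gene, gave 512 and 556 with DEX and 56.0 and 28.5 without it in the Vector line, and 63.5 to 139 (median 107) on the rga arrays. AT5G23170, another protein kinase gene, gave 381 and 445 with DEX and 35.0 and 51.3 without it, against 93.0 to 183 (median 130.2) on the rga arrays. AT1G07560, of the leucine-rich repeat kinases, gave 175 and 193 with DEX and 24.7 and 19.9 without it, against 37.1 to 123 (median 88.1) in the rga line. Vector changes of these kinase genes were 3.74, 3.28 and 3.05, and each of their Vector mock signals was below every array of the rga line. AT5G24390, of the Rab GTPase-activating family, gave 189 and 153 with DEX and 50.7 and 12.1 without it in the Vector line, a change of 2.78, and 53.9 to 99.4 in the rga line. Its Vector mock arrays lay far apart, and without the second of them the change was 1.75, below the threshold of the rule.

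**Figure D2:**
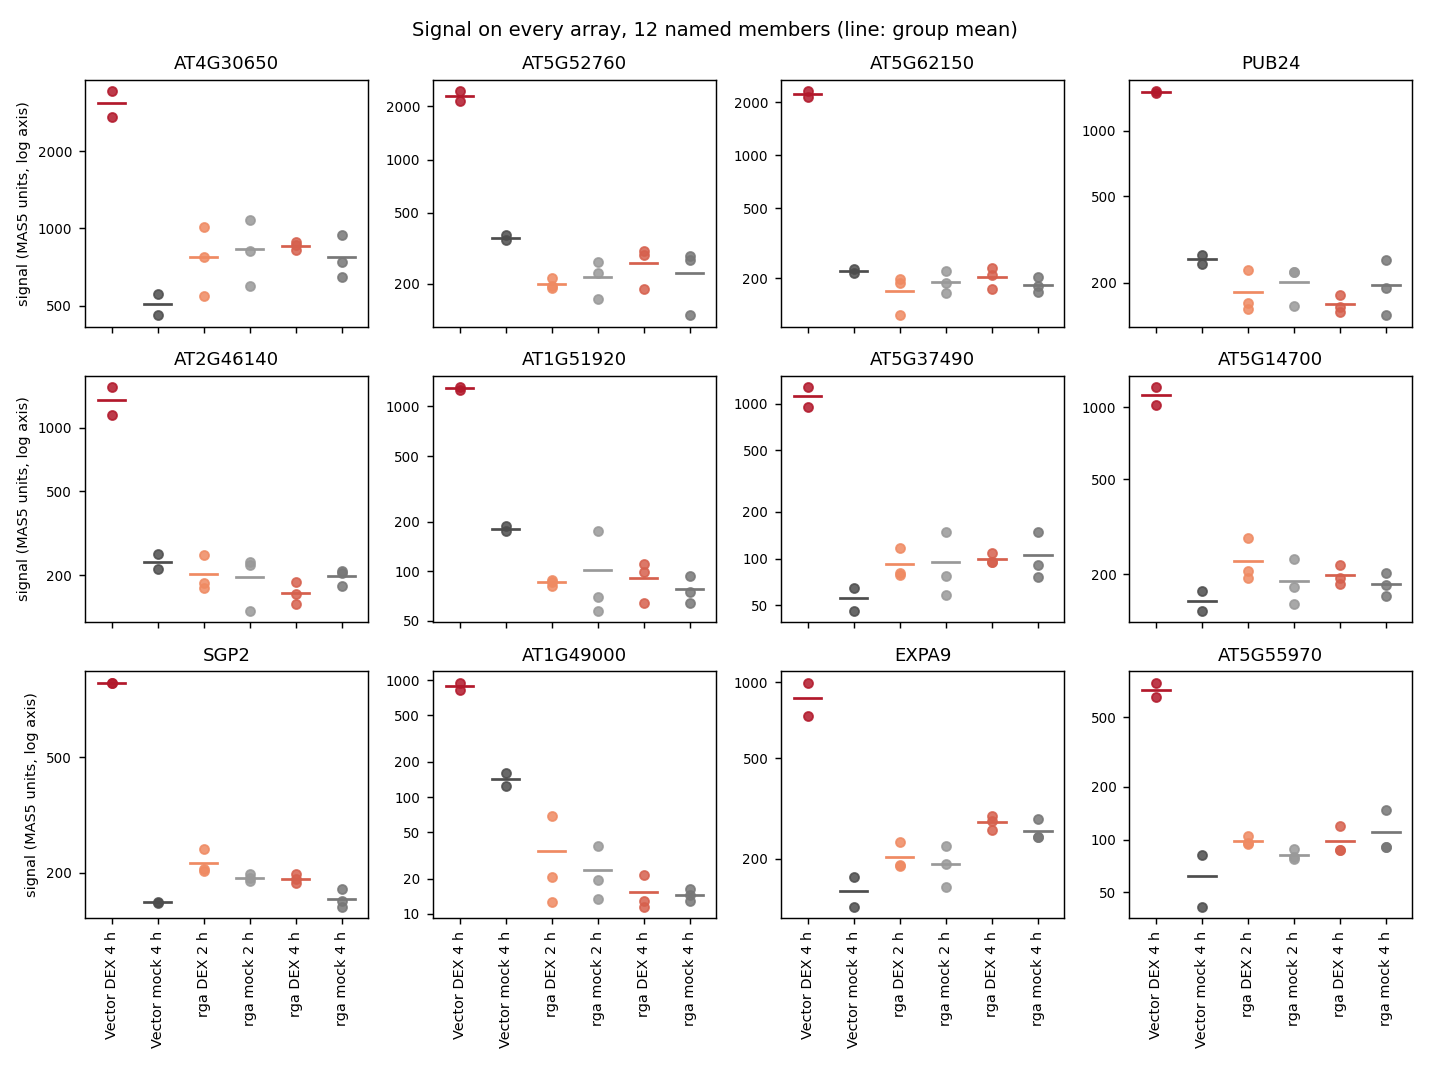
MAS5 signal (log axis, a separate range in each panel) of the 12 named members with the highest Vector DEX signal, on every array by group. Points are arrays and short lines are group means. In each panel the 2 Vector DEX points are above all other points. Vector mock also lies above all rga arrays for AT1G49000 (161 and 126, against 11.4 to 69.5) and AT5G52760 (349.8 and 376, against 132 to 303).

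A second set was grouped by gene family or protein domain as likely to act at the cell wall or outside the cell. Where these proteins act was not measured. EXPA9 encodes an alpha-expansin, a protein that loosens cell walls. Its signal was 738 and 997 on the Vector DEX arrays, against 169 and 129 on the Vector mock arrays, a change of 2.54 (5.81-fold). At 4 h the rga line gave 295, 260.2 and 283 with DEX and 289, 243 and 245 without it. At 2 h it gave 187, 189.7 and 233 with DEX and 225, 155 and 191 without it. DEX and mock overlapped at each time in the rga line, with changes of 0.11 at 4 h and 0.10 at 2 h, while the 4 h arrays all lay above the 2 h arrays.

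AT5G62150 encodes a LysM-domain protein, a domain that in plants binds chitin-like sugars in several known receptors. It was among the brightest members, at 2310.3 and 2129 on the Vector DEX arrays, against 215 and 226 in Vector mock. The rga arrays gave 230.4, 174 and 209 with DEX and 168, 180.3 and 205 without it at 4 h. At 2 h they gave 124, 199 and 189.5 with DEX and 166, 221 and 188 without it. Its Vector change was 3.33 (10.1-fold), and Vector mock lay at the upper end of the rga arrays.

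The other members of this set were dimmer. AT2G22620, a rhamnogalacturonate lyase family gene of pectin breakdown, gave 195 and 205 with DEX and 24.8 and 11.1 without it in the Vector line, and 2.11 to 23.4 in the rga line. MMP, a matrix metalloproteinase gene, gave 311 and 275 with DEX and 25.6 and 41.2 without it, against 14.1 to 121 (median 65.8) in the rga line. AT5G11940, a subtilase gene, gave 136 and 116 with DEX and 26.7 and 8.98 without it, against 48.7 to 117 (median 78.5) in the rga line. For AT5G11940 the Vector DEX arrays thus lay at the level of the highest rga array, and the Vector change of 3.02 went with Vector mock arrays below all 12 rga arrays. Its second Vector mock array was close to the floor, and without that array the change was 2.23, below the threshold of the rule.

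Metabolic enzymes formed another group. AT5G14700, an NAD(P)-binding protein gene related to cinnamoyl-CoA reductases, gave 1022 and 1216 with DEX and 140.3 and 169.7 without it in the Vector line. In the rga line it gave 194, 219 and 182 with DEX and 181, 203 and 163 without it at 4 h, and 206, 284 and 192 with DEX and 150.3, 178 and 233 without it at 2 h. The Vector change was 2.85 (7.23-fold), and the rga groups overlapped at both times, with changes of 0.12 at 4 h and 0.29 at 2 h. AT1G78990, of the HXXXD-type acyltransferases, gave 139 and 128 with DEX and 9.44 and 2.43 without it in the Vector line, and 2.04 to 11.3 in the rga line. AT1G30740, of the berberine bridge enzyme family, gave 104 and 121 with DEX, and both Vector mock arrays lay under the floor, so the change was at least 14.1-fold. AT1G33700, a non-lysosomal glucosylceramidase family gene, gave 142 and 166 with DEX and 19.6 and 20.1 without it, a change of 2.95, against 7.93 to 41.1 in the rga line. AT1G78990, AT1G30740, AT2G22620 and AT4G16680, an RNA helicase-related gene (195 and 126 with DEX, 15.4 and 15.7 without it), had rga medians under 8, where the floor limits the change that could be seen. In all, 10 of the 45 members had at least 6 of the 12 rga arrays at or under the floor, so their near-zero rga changes rest largely on it, and 31 had none.

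AT4G30650 and AT2G46140 are among the brightest named members. The first, AT4G30650, of the low temperature and salt responsive family of small membrane proteins, had the highest signal of the named members. It gave 2713 and 3430.2 on the Vector DEX arrays and 556 and 458 on the Vector mock arrays. The rga arrays gave 824, 883 and 865 with DEX and 941, 647 and 739 without it at 4 h, and 1009, 545 and 776 with DEX and 1079.6, 819 and 598 without it at 2 h. Its Vector change was 2.59 (6.04-fold), and the median of the rga arrays, 821, lay above both Vector mock arrays. AT2G46140, a late embryogenesis abundant (LEA) gene, gave 1152 and 1563 with DEX and 251 and 213 without it in the Vector line, a change of 2.54. Its rga arrays gave 147, 163 and 186 with DEX and 179, 204 and 209 without it at 4 h. At 2 h they gave 173, 183 and 249.5 with DEX and 225, 135 and 232 without it. At 4 h 2 of the 3 DEX arrays of AT2G46140 lay below all mock arrays, a change of -0.26.

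AT5G52760, of the heavy metal-associated copper-binding family, gave 2435 and 2134 on the Vector DEX arrays, against 349.8 and 376 on the Vector mock arrays. In the rga line it gave 290.4, 187 and 303 with DEX and 132, 284 and 273 without it at 4 h, and 216, 195 and 188 with DEX and 264, 163 and 229 without it at 2 h. Its change was 2.65 (6.29-fold) in the Vector line, and Vector mock was above every rga array.

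AT1G51920 and AT1G49000, for which no role is given here, also stood higher in Vector mock than in rga mock at 4 h. AT1G51920 gave 1255 and 1316 with DEX and 174 and 188 without it in the Vector line. Its rga arrays gave 110.5, 64.4 and 98.3 with DEX and 64.0, 94.0 and 74.5 without it at 4 h, and 86.4, 81.7 and 87.9 with DEX and 57.0, 69.8 and 176 without it at 2 h. AT1G49000 gave 954 and 818 with DEX and 161 and 126 without it in the Vector line. Its rga arrays gave 12.8, 11.4 and 21.6 with DEX and 16.4, 14.6 and 12.8 without it at 4 h, and 20.7, 12.7 and 69.5 with DEX and 19.5, 13.3 and 38.3 without it at 2 h. The rga groups of both genes overlapped, and their Vector changes were 2.83 (7.10-fold) for AT1G51920 and 2.64 (6.22-fold) for AT1G49000.

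The remaining named members span several families. AT3G03440, of the armadillo repeat proteins, gave 269 and 325 with DEX and 39.8 and 53.8 without it in the Vector line, and 61.7 to 175 (median 97.5) in the rga line. AT4G26920, a START lipid-binding domain gene, gave 152 and 162 with DEX and 15.3 and 14.6 without it, against 44.2 to 133 (median 85.4). For AT2G28580 and AT1G35210 no role is given here. AT2G28580 gave 99.6 and 123 with DEX and 12.2 and 3.70 without it in the Vector line, against 19.3 to 173 (median 58.6) in the rga line. AT1G35210 gave 592 and 513 with DEX and 114 and 79.6 without it, against 43.0 to 103 (median 59.8). AT2G28580 was the member whose rga arrays reached furthest above its Vector DEX arrays.

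The 18 members without a single gene name had Vector changes of up to 6.12 and mean Vector DEX signals of 108 to 19397. The brightest of all members is one of them and gave 17659 and 21136 with DEX and 2208 and 2113 without it in the Vector line, a change of 3.16, and 1347 to 2319 in the rga line. The unnamed member with the largest rise gave 552 and 564 with DEX, both Vector mock arrays lay under the floor, and no rga array exceeded 12.2, so its change was at least 69.8-fold.

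**Figure D3:**
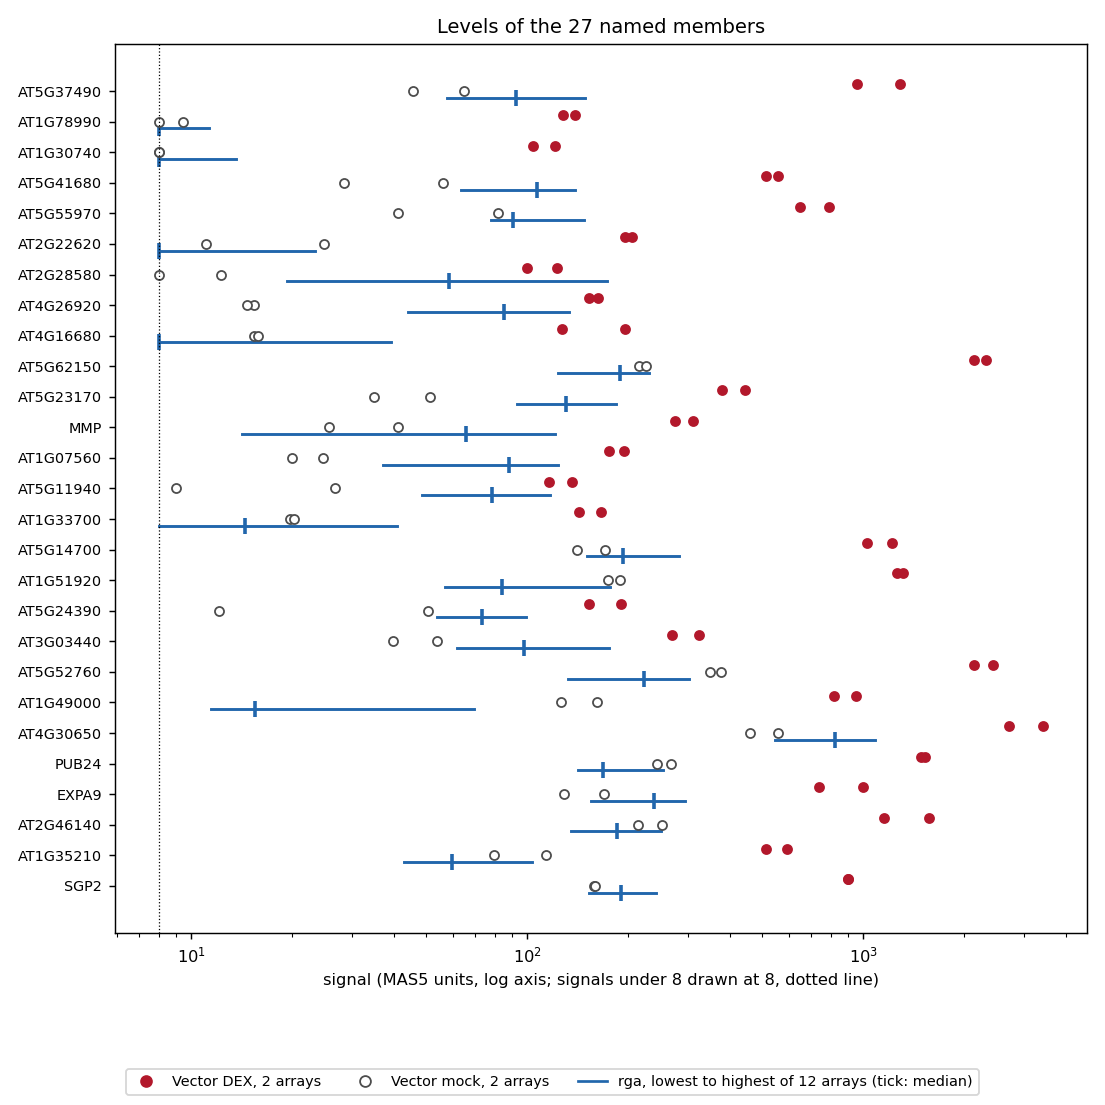
Signal (log axis, values under 8 drawn at 8) of the 27 named members in order of falling Vector change. Red points are the 2 Vector DEX arrays, open points the 2 Vector mock arrays, and blue lines run from the lowest to the highest of the 12 rga arrays with a tick at the median. For AT2G28580, AT5G11940 and AT4G26920 the red points touch or lie near the upper end of the blue line and the open points lie left of it.

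Measured against the rga line instead of Vector mock, the height of the Vector DEX signal varied between members. The lower Vector DEX array was above all 12 rga arrays in 43 of 45 members and at least 2-fold above the highest of them in 36, of which 21 are named. The exceptions were AT2G28580, at 0.58 of the highest rga array, and AT5G11940, level with it. In the 9 members under 2-fold, AT4G26920 (1.14), AT1G07560 (1.42), AT3G03440 (1.53) and AT5G24390 (1.54) were the other named ones. In 8 of these 9 the Vector mock arrays lay below all rga mock arrays at 4 h. The mean log2 signal of Vector DEX minus that of rga DEX at 4 h had a median of 3.02 and a range of 0.77 to 5.92, and was at least 1 in 44 of 45. In those 8 the Vector change thus includes a mock level below that of the rga line, and "confined to the Vector line" describes the change more than the level reached. The rule asked for a strong Vector rise and a bright Vector DEX signal, which favours Vector DEX arrays above the rga arrays. The share over all probe sets is not given here, so nothing is read from the counts of members above the rga arrays.

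Without DEX the lines already differed at many members. At 4 h both Vector mock arrays were below all 3 rga mock arrays in 14 members and above them in 6, and the groups overlapped in 25. All 14 and 6 are among the 31 tested members, where they make up 45.2% and 19.4%, against 32.6% below and 18.3% above over all tested probe sets. The rule used the Vector mock arrays, so nothing is read from these counts. The difference in mean log2 signal, Vector mock minus rga mock, was -2.45 for AT5G11940, -2.24 for AT4G26920, -2.03 for AT2G28580 and -1.88 for AT1G07560. At the other end it was 3.29 for AT1G49000, 1.24 for AT1G51920 and 0.74 for AT5G52760. AT5G62150 (0.26) and AT2G46140 (0.23) were above by less.

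A near-zero change in the rga line is limited by its error. In the limma fit across all tested probe sets the median SE of the members' DEX change was 0.32 at each time for the rga line and 0.39 for Vector. The window of ±0.3 thus reaches about 1 SE of the rga change to each side of 0. Of 31 members that passed the filter on dim probe sets, 22 had a 95% interval within ±1 at 4 h and 22 at 2 h. These intervals used the SE of the fit with 10 residual degrees of freedom. The rule held their centres within ±0.3, so these counts reflect the size of the SE and are no test of a flat response. The other 14 members, 5 of them named, had Vector DEX signals of 108 to 558 and were not tested. The ratio of the highest to the lowest rga array had a median of 2.12 and reached 8.96. All 31 tested members were called higher in Vector DEX than in Vector mock (limma, Benjamini-Hochberg adjusted p below 0.05), where the shares of all probe sets were 17.7% higher and 29.6% lower. The rule chose members on this contrast and the filter favoured members that were bright in it, so nothing is read from that count.

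Among probe sets with a single gene name, those nearest each threshold on either side are listed here. Members without a single gene name were left out of this listing, and some lay nearer. For the Vector change, SGP2 (2.51), AT1G35210 (2.53) and AT2G46140 (2.54) were just inside, and AT2G41800 (2.48), AT3G09405 (2.45) and AT5G52750 (2.38) just outside. In the rga line at 4 h, AT3G03440 (0.27), AT2G46140 (-0.26) and PUB24 (-0.25) were just inside, and BGLU27 (0.31), CML37 (-0.32) and AT2G31945 (0.33) just outside. At 2 h AT1G49000, AT1G33700 and AT5G14700 (each 0.29) were just inside, and AT2G04050 (-0.30), AT3G01570 (-0.31) and AT3G03680 (0.32) just outside. For the signal, AT2G28580 (111), AT1G30740 (113) and AT5G11940 (126) were just inside, and AT5G67430 (89.8), AT1G68340 (84.8) and AT3G04170 (72.2) just outside.

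One comparison did not enter the choice of members: 4 h against 2 h in the rga line, averaged over DEX and mock. EXPA9 was higher at 4 h by 0.46 ± 0.12 on the log2 scale (SE; limma, adjusted p = 0.0255 over all 17059 probe sets tested), with all 6 arrays at 4 h above all 6 at 2 h. It was the only call among the 31 tested members (3.23%), against 6.34% of all tested probe sets in either direction. At an unadjusted p below 0.05 there were 4 (12.9%), against 17.9% of all tested probe sets. The filter on dim probe sets used the mean over all 16 arrays, and AT1G49000 is the 1 member of the 31 whose mean over the rga arrays alone lay under its limit. The EXPA9 call was lost without any of 6 of the 12 rga arrays. SGP2 was lower at 4 h by a log2 change of -0.21, which did not pass (limma, adjusted p = 0.208). Over the 31 the change had a median of -0.01, against 0.01 over all tested probe sets, and ran from -0.94 for AT2G28580 to 0.58, with a median SE of 0.23.

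**Figure D4:**
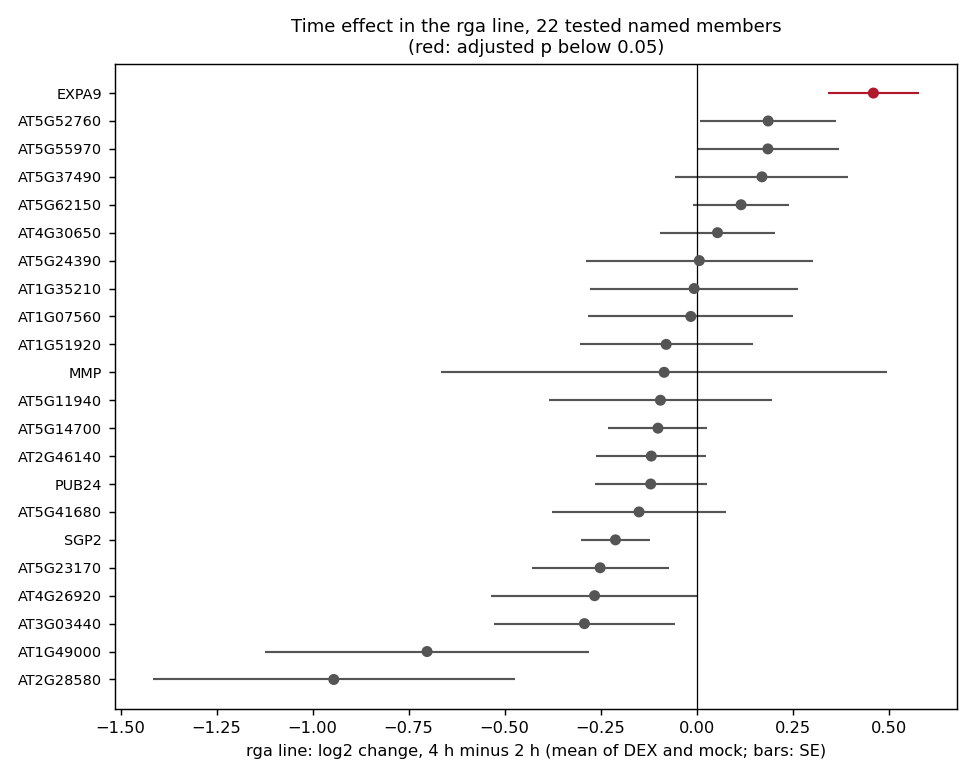
Log2 change in the rga line, 4 h minus 2 h and averaged over DEX and mock, of the 22 named members that were tested; bars are the SE of the limma fit. EXPA9 (red, 0.46) passed the adjusted threshold, and most of the others lie within 1 SE of 0, with the widest bars at the dim members MMP, AT1G49000 and AT2G28580.

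The neighbours of the members along the chromosomes were looked up in the same Vector comparison. The 27 named genes have 54 directly adjacent genes in the RefSeq annotation, of which 26 had a tested probe set. With DEX, Vector shoots had 3 of the 26 called higher, 9 lower and 14 in neither direction (limma, adjusted p below 0.05), against 17.7% higher and 29.6% lower of all probe sets tested. AT5G52750, a neighbour of AT5G52760 in the same copper-binding family, was higher by 2.38, AT2G22610, beside AT2G22620, by 1.85, and AT2G28590, beside AT2G28580, by 1.37. The largest falls among the 9 were in AT1G78995 (-4.19), beside AT1G78990, AT5G11930 (-2.66), beside AT5G11940, and APK1A (-2.65), beside AT1G07560. None of the 54 is a named member, and the 18 members without a single gene name could not be placed along the chromosomes.

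Stress and detoxification lists were set beside the members. Of 13 such lists matched by gene symbol, 8 had a tested gene and 5 did not: ABC transporters, AP2/ERF factors, MYB factors, jasmonate genes and MATE transporters. The 8 held 48 tested genes, of which 12 were called higher and 13 lower in Vector DEX than in Vector mock, and none is a member. These shares, 25% higher and 27.1% lower, stand beside 17.7% higher and 29.6% lower over all tested probe sets. The lists hold only tested genes matched by the start of the symbol, so the 18 members without a single gene name could not appear. Of the named members only MMP, PUB24, EXPA9 and SGP2 have a symbol other than a locus code. The rest, among them AT4G30650 and AT2G46140, could not be matched either. That no list gene is a member was thus largely fixed by the naming, and nothing is read from it. The median Vector change over all tested probe sets was -0.15. Among 10 glutathione transferases, detoxifying enzymes, 1 rose, GSTU25 by 2.37, and 3 fell, among them GSTU27 (-3.77) and GSTU16 (-2.55), with a list median of -0.44. Of 15 genes matched to the cytochrome P450 symbol 6 rose and 2 fell, with a median of 0.03. CYP59 and CYP71 among them are cyclophilin genes by family, neither was called, and the 13 P450 genes without them had a median of 0.63. CYP71B22 changed by 3.29, CYP51G2 by 3.02, CYP71B28 by -0.96 and CYP71B34 by -0.95. Of 5 WRKY transcription factor genes WRKY6 rose by 2.63 and 2 fell, WRKY47 (-2.48) and WRKY22 (-1.40), with a median of -0.30.

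Among 8 genes matched to abscisic acid and drought symbols, the dehydrin gene COR47 rose by 1.89 and RAB6A by 0.46. In that list ARD4 (-1.41) and RD2 (-0.35) fell, and its median was -0.35. These matches are by the start of the symbol, and RAB6A and ARD4 belong to other families by name. Of 7 calmodulin-like and calcium-dependent kinase genes 2 rose, CML37 by 4.61 and CML42 by 2.02, and 3 fell, CML23 (-3.13) and CML41 (-2.54) among them, with a median of -0.13. The only NAC factor tested, NAC014, fell (-0.71), and neither the 1 heat shock gene (1.44, limma adjusted p = 0.134) nor the 1 peroxidase (-0.31) was called. Of these genes 5 reached a Vector change of 2.5, and each was outside the rga window at 1 time or both: CYP71B6 changed there by 0.39 at 4 h, CYP51G2 by 0.79 at 2 h, WRKY6 by 1.65 at 4 h and 0.60 at 2 h, CML37 by -0.32 at 4 h, and CYP71B22 by 0.83 at 4 h and 1.14 at 2 h.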

How the data were processed

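Intensities were deposited on a linear scale, 1 value per probe set. The submitters' processing notes name MAS5 as the authors' tool for them; its version and settings are not given in the sources here. The deposited scaling was kept. Of 22810 probe sets, 64 controls were left out. Signals were floored at 8 and log2 taken. For tests, the dimmest 25% by mean log2 signal were dropped (17059 kept). R 4.3.3 and limma 3.58.1 fitted 6 group means over 16 arrays (10 residual degrees of freedom, eBayes with a trend). Adjusted p-values are Benjamini-Hochberg over all probe sets tested; errors are SEs. The script was tested on simulated data. The design text calls the replicates biological. The number of arrays limits the precision.

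The probe annotation gives 13513 probe sets 1 gene each, while 503 have several and 8730 have none; RefSeq (TAIR10.1) updated the symbols and gave a locus to 13436. None of the 27 named genes has another probe set. Members, gene lists and markers were chosen with earlier results of these data known. Named were all members with 1 gene, values on every array being given for the 12 with the highest Vector DEX signal and for any member called between the times, 3 named probe sets on each side of a threshold, and the 2 highest and lowest called genes of each list; the 2 unnamed members described and the neighbouring genes were named after their values had been seen. Alternatives were other normalizations, floors, filters and thresholds, a replicate block and each array left out in turn. Promoter sequences were not analysed here.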

Additional observations from a re-analysis of the deposited data

Results flagged for a closer look

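The 25S ribosomal RNA control probe set, which enters no comparison, averaged 12808.2 on the Vector DEX arrays, against 474 ± 73.5 (SD, n = 2) in Vector mock and 391 to 2046 in the rga line. The other control probe sets were not screened for such a rise, and the part of the 25S signal in the members' rises was not tested.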

How the results depend on the processing

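No result changed direction. The median Vector change of the members, 3.16, was 2.88 after quantile normalization, 3.43 after centring on array medians, 2.55 with a floor of 32 and 2.60 with an offset of 16, and 3.01 to 3.29 with single arrays left out. The rule gave 45 members; it gave 77 at a Vector change of 2, 26 at 3, 21 with an rga window of 0.2, 97 with one of 0.5, and 36 to 51 with single arrays left out. Of the 45, 32 were among the 44 that quantile normalization gave, 45 among the 61 after centring, 30 among the 63 with the floor of 32 and 24 among the 42 with the offset. With single arrays left out, 30 to 43 of the 45 were kept. Of the 27 named genes, 19 kept a Vector change of at least 2.5 after quantile normalization, 19 with the floor of 32, 14 with the offset and 27 after centring. For 4 h against 2 h, 1082 probe sets were called, but 263 in mock alone, 708 in DEX alone and 828 to 1079 with single arrays left out. Members called, 1 in the main setting, were 0 with no filter, in mock alone and in DEX alone, 2 with the lowest 50% left out, and 0 to 2 with single arrays left out. The EXPA9 call was lost under 9 of 27 alternatives, with changes of 0.39 to 0.53 and adjusted p of 0.0154 to 0.263 (limma). With a replicate block 2 members were called; same-numbered arrays correlated at -0.08 to 0.26 in their deviations, so the numbers were not taken as pairs.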
